A study of Homo sapiens with 9 samples.

Results

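The metallothionein genes MT1A, MT1E, MT1F, MT1G, MT1H, MT1M, MT1X and MT2A and the gene of their transcription factor, MTF1, were examined in HepG2 cells with and without glutamine (Gln). They were chosen by symbol, with earlier results of these data known, from the expression table, where they are 9 of 22587 genes. All 9 reached the mean of 0.5 FPKM (fragments scaled to transcript length and library depth) that was asked of a gene for a test, as did 11880 genes in all. The summed FPKM, as deposited, of the 8 metallothionein mRNAs after 12 h of Gln deprivation was 1.22 times that with Gln added. After 24 h it was 0.665 times that level.

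HepG2, an established human line from a liver tumor, was grown in high-glucose medium. The design had 3 groups of 3 RNA-seq libraries, 1 with Gln added and the others taken after Gln had been withdrawn for 12 h or 24 h, to find genes that respond to Gln withdrawal. GlutaMAX, a stable dipeptide source of Gln, is given as the treatment of the cultures with Gln added, whereas the treatment protocol places it in the Gln-free medium of the deprivation experiment. Which of these holds was not settled here, and the groups keep the names Gln added, 12 h and 24 h. The sources do not say that replicates were grown independently, so p-values measure only the spread between these libraries.

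Metallothioneins are small proteins rich in cysteine that bind zinc and copper and can take up cadmium. They buffer free zinc in the cell, react with oxidants, and are made in large amounts by the liver. Zinc activates the zinc-finger protein MTF1, which binds metal response elements in metallothionein promoters and in the promoter of SLC30A1, the zinc exporter of the plasma membrane.

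The 8 metallothionein genes lie within 75.6 kb of chromosome 16 (GRCh38, GENCODE v44). In the order of the chromosome they are MT2A (56608584 to 56609497), MT1E (56625475 to 56627112), MT1M (56632659 to 56633981), MT1A (56638666 to 56640087), MT1F (56657731 to 56660698), MT1G (56666730 to 56668065), MT1H (56669814 to 56671129) and MT1X (56682470 to 56684196). MT1G is on the minus strand and the other 7 are on the plus strand. MTF1 is on the minus strand of chromosome 1, from 37809574 to 37859592. The metallothionein transcripts are short, with lengths between 396 and 746 bases recovered from the FPKM values, against 8872 for MTF1. Aligned to each other, 7 of the 8 transcripts shared 76.9% to 88.3% of bases in every pair, with MT1G and MT1H the most alike. These are shares of the longer transcript of each pair. MT1E, at 746 bases against 396 to 425 for the others, shared 43.3% to 46.2% with them. Its length alone keeps that share low, so it does not measure how alike the aligned parts are. No stretch of 150 bases in the main transcript of a member recurred in a transcript of another gene, except in MT1X, where 17 of 255 stretches (6.67%) recurred in the non-coding gene ENSG00000259827. Exons of that gene cover 18.6% of the exonic bases of MT1X on the same strand, so part of the MT1X level could belong to it.

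Promoter sequences are shown because the metal response element is the sequence through which MTF1 reaches these genes. The RefSeq table (GRCh38.p14) held a promoter for MT2A, MT1H, MT1X and MTF1, and the 250 bases before the transcription start are printed here 5′ to 3′ on the plus strand, the coding strand of these metallothioneins. Capitals mark the core of the element, written TGCACNC or TGCGCNC on the printed strand, or its reverse complement, where N is any base. No marked core overlaps another.
MT2A (chr16:56608334-56608583): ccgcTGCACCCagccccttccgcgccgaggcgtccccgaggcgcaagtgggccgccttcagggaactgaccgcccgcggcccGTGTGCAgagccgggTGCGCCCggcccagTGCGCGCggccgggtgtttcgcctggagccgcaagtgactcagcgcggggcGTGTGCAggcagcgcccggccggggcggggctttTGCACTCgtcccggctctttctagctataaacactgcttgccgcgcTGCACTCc
MT1H (chr16:56669564-56669813): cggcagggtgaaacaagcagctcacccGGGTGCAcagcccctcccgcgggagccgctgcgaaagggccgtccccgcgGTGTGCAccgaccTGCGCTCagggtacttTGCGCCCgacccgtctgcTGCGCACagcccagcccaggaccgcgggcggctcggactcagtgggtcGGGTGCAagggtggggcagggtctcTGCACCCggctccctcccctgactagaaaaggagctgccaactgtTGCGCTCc
MT1X (chr16:56682220-56682469): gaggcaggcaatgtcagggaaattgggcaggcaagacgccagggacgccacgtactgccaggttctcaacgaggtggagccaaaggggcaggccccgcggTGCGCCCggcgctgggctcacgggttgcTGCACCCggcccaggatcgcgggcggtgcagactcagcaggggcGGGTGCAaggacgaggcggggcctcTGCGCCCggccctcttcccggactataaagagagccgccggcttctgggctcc

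The core was found 7 times before MT2A, 8 times before MT1H, 4 times before MT1X and 0 times before MTF1. Of 35116 promoters in the table, 24.8% held at least 1 core in the same length, 0.37% at least 4 and 0.0513% at least 6. MT1H and MT1X each had a core on the printed strand whose first base is 53 bases before the start and a reverse complement 78 bases before it, and MT2A had a core on the printed strand 54 bases before the start. Both MT2A and MT1H had a further core 8 bases before the start. A match of letters is a description of the promoter, not a measurement of binding. MT1A, MT1E, MT1F, MT1G and MT1M had no promoter in the table.

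The liver identity of the cells was checked first, together with depth. A library held between 29618604 and 36258158 fragments on genes. All 8 hepatocyte markers were expressed, with mean ALB levels of 3831, 3350 and 3342 FPKM in the order Gln added, 12 h and 24 h. The summed hepatocyte markers ranged from 7471 to 7570 FPKM with Gln added, and in the Gln-deprived libraries from 6551 to 6623 (12 h) and from 6331 to 6662 (24 h). Of 8 markers of other cell types, 7 were in the table and 2 were tested, CD68 and ACTA2, both of which fell at 12 h and at 24 h. COL1A1, COL3A1, VWF and KRT7 stayed at or below 0.052 FPKM in every library, PECAM1 reached 0.343 FPKM, and the 7 markers summed to 71.2 to 73.2 FPKM with Gln added, to 52.0 to 57.8 FPKM after 12 h and to 43.0 to 47.7 FPKM after 24 h. Their part in the metallothionein results was not tested. In bulk RNA, fewer cells that make an mRNA and less of it per cell cannot be told apart.

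With Gln added, metallothionein mRNAs were among the abundant mRNAs of these cells. On the FPKM scale, which divides by length, MT2A stood at rank 73 of 22587 genes, MT1G at 121, MT1E at 168, MT1F at 365 and MT1X at 561. MT1M and MT1A followed at 2695 and 2832, MTF1 at 8662 and MT1H at 11520. The order of the 9 mean levels was the same in all 3 groups. Neighbours in this order did not overlap between their libraries in any group, except MT1M and MT1A, which overlapped with Gln added and at 24 h.

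MT2A, the most abundant metallothionein and a broadly expressed one, stood at 643, 612 and 633 FPKM in replicates 1 to 3 with Gln added. It stood at 881, 797 and 928 FPKM at 12 h and at 595, 414 and 484 FPKM at 24 h. Every 12 h library was above, and every 24 h library below, all libraries with Gln added. The mean was 1.38 times that with Gln added at 12 h and 0.783 times at 24 h on the fitted scale.

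MT1G, an inducible member of the cluster, had 388, 363 and 371 FPKM with Gln added, and its 12 h libraries, at 425, 393 and 374 FPKM, overlapped these. At 24 h it had 255, 189 and 238 FPKM, below all other libraries. MT1E, a neighbour of MT2A in the cluster, had 271, 259 and 268 FPKM with Gln added, 306, 276 and 281 FPKM at 12 h and 147, 117 and 140 FPKM at 24 h. Its 12 h libraries all lay above those with Gln added, by a mean of 1.08-fold that did not pass the test. At 24 h it was at 0.505 times the level with Gln added.

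MT1F had 130, 139 and 144 FPKM with Gln added, 188, 158 and 147 FPKM at 12 h, and 93.2, 82.2 and 95.7 FPKM at 24 h. The 3 groups did not overlap, although the lowest 12 h library was close to the highest one with Gln added. MT1X had 99.98, 90.8 and 100.3 FPKM with Gln added, 120, 122 and 111 FPKM at 12 h, and 55.4, 47.9 and 62.2 FPKM at 24 h. It was at 1.21 times the level with Gln added at 12 h and 0.567 times at 24 h, again with no overlap between groups.

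MT1M, a less abundant member, had 19.8, 27.3 and 20.4 FPKM with Gln added, 50.9, 47.3 and 37.4 FPKM at 12 h, and 14.1, 11.3 and 16.1 FPKM at 24 h. The level at 12 h was 2.01 times that with Gln added, and the level at 24 h was 0.308 times that at 12 h. No library of one group reached those of another.

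MT1H was the least abundant member, with 0.988, 0.288 and 0.637 FPKM with Gln added, which were 14, 4 and 9 fragments. At 12 h it had 2.64, 2.22 and 1.89 FPKM from 31, 32 and 27 fragments, and at 24 h 0.985, 0.909 and 0.794 FPKM from 14, 12 and 11 fragments. The 12 h libraries lay above all others, and those at 24 h overlapped with Gln added. With counts this low, the fitted 3.44-fold rise at 12 h was imprecise (95% interval of the log2 fold change from 1.12 to 2.44) and depended on the pseudocount, being 1.00 on the log2 scale with a pseudocount of 1.

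MT1A was lower at both times. It had 14.6, 25.5 and 23.7 FPKM with Gln added, 12.0, 7.73 and 14.2 FPKM at 12 h, and 11.6, 5.54 and 8.04 FPKM at 24 h. Every Gln-deprived library was below every library with Gln added, and the libraries at 12 h and 24 h overlapped. Its replicates varied more than those of the other members above 10 FPKM, with coefficients of variation of 27.6%, 29.2% and 36.5% in the same order of groups.

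MTF1, the zinc-sensing factor, had 2.91, 3.17 and 2.91 FPKM with Gln added, 3.84, 3.69 and 3.93 FPKM at 12 h, and 3.23, 3.37 and 3.43 FPKM at 24 h. It was highest at 12 h in every library, and the 24 h libraries lay between the other groups without overlap. Its level was 1.27 times that with Gln added at 12 h and 1.11 times at 24 h.

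**Figure D1:**
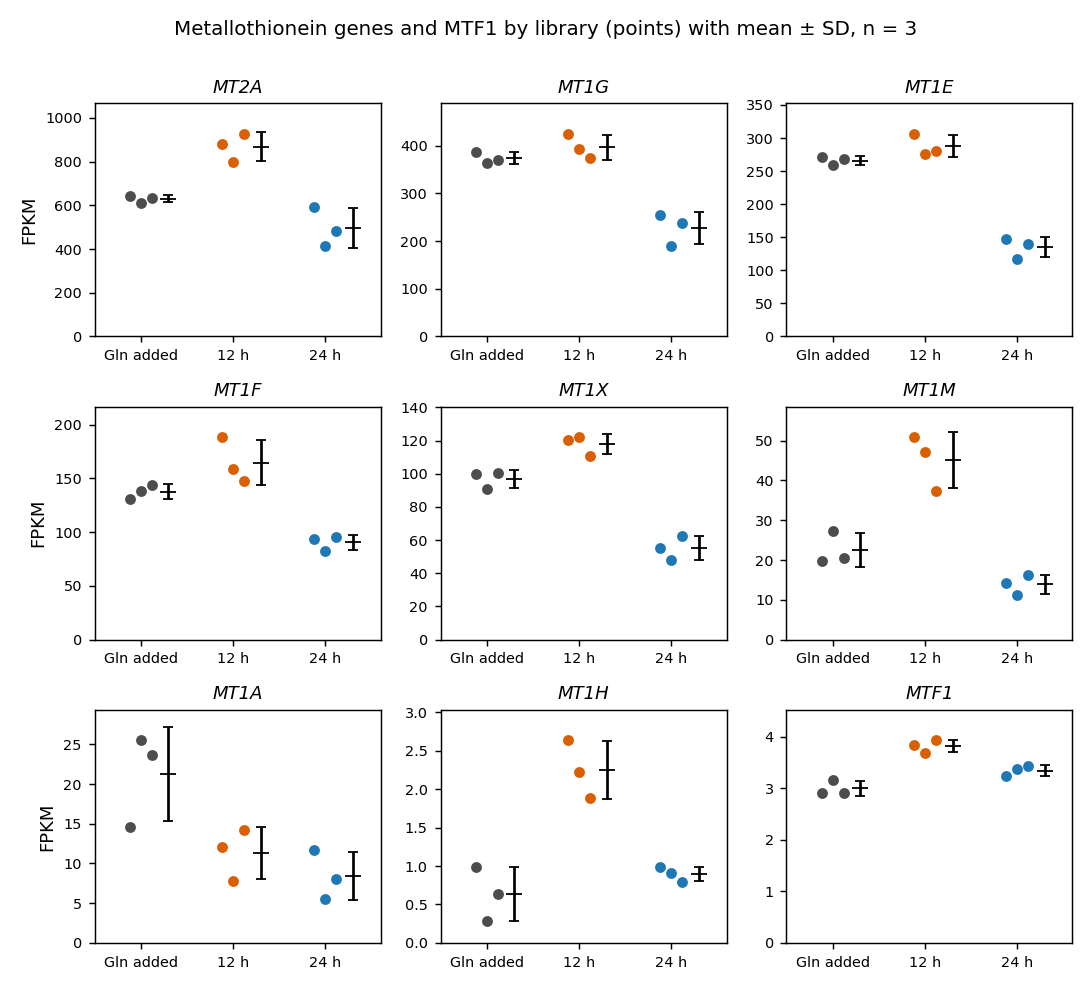
FPKM of the 8 metallothionein genes and MTF1 in each library (points, replicates 1 to 3 from left to right) with the mean ± SD of 3 libraries beside them, on linear axes that start at 0. The 12 h libraries of every gene but MT1G and MT1A lie above all others, narrowly for MT1E and MT1F. The 24 h libraries of MT2A, MT1G, MT1E, MT1F, MT1X and MT1M lie below all others, while MT1A is lower at both times.

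The first comparison asked which of these mRNAs had changed after 12 h without Gln. Of the 9 genes, 6 rose (MT1F, MT1H, MT1M, MT1X, MT2A and MTF1), MT1A fell, and MT1E and MT1G did not pass the test (limma, Benjamini-Hochberg adjusted p under 0.05 over all genes tested). Of all 11880 genes, 29.1% rose and 31% fell at 12 h by the same test. The median log2 fold change was 0.28 for the 9 genes and -0.02 for all genes. The log2 fold change was 1.78 for MT1H (SE 0.30, adjusted p = 0.000437 from limma), 1.01 for MT1M (SE 0.157, adjusted p = 0.000258) and 0.46 for MT2A (SE 0.106, adjusted p = 0.00316). MTF1 rose by 0.34 (SE 0.0614, adjusted p = 0.000692 from limma), MT1X by 0.28 (adjusted p = 0.013) and MT1F by 0.25 (adjusted p = 0.0257). MT1A fell by 0.91 (SE 0.295, adjusted p = 0.0212 from limma). For MT1E the 95% interval of the log2 fold change ran from -0.05 to 0.28, and for MT1G from -0.12 to 0.29.

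The count at 12 h depended on single libraries and on settings of the test. Without replicate 2 with Gln added, 4 of the 9 genes passed the test (MT1H, MT1M, MT2A and MTF1). MT1X stood at 0.23 without that library (adjusted p = 0.0553 from limma). MT1F lost its call without replicate 1 (0.21) or replicate 2 (0.26) with Gln added and without replicate 1 at 12 h (0.15), and over its 20 alternatives the adjusted p ran from 0.000153 to 0.0914. MT1A lost its call without replicate 2 (-0.75) or replicate 3 (-0.81) with Gln added and without replicate 2 at 12 h (-0.66), in a range of adjusted p from 0.00557 to 0.0897. With no filter on low values both MT1A (adjusted p = 0.0693 from limma) and MT1F (adjusted p = 0.0747) lost their calls. MT1F also lost its call when limma was run without a trend (adjusted p = 0.0509). MT1E gained a call without replicate 2 at 24 h (adjusted p = 0.0425 from limma), a library that enters only the shared estimate of the spread. An alternative added after seeing the data removed the trend of each library on gene length and GC content, which raised the log2 fold changes at 12 h of these short genes. It gave 0.74 for MT2A, 0.55 for MT1X, 0.50 for MT1F, 0.36 for MT1G (adjusted p = 0.00531 from limma) and 0.29 for MT1E (adjusted p = 0.00146), and MT1A then missed the threshold at -0.63 (adjusted p = 0.0753).

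After 24 h without Gln, 7 of the 9 genes had fallen (MT1A, MT1E, MT1F, MT1G, MT1M, MT1X and MT2A), MTF1 was higher, and MT1H did not pass the test. Of all genes tested, 33% rose and 31.7% fell at 24 h. The median log2 fold change was -0.69 for the 9 genes and 0.01 for all genes. MT1A had the lowest log2 fold change, at -1.35 (SE 0.295, adjusted p = 0.00211 from limma). MT1E followed at -0.99 (SE 0.0737, adjusted p = 8.10e-07), MT1X at -0.82 (adjusted p = 8.20e-06), MT1G at -0.73 (adjusted p = 5.16e-05), MT1M at -0.69 (adjusted p = 0.00258) and MT1F at -0.61 (adjusted p = 0.000104). The smallest fall was that of MT2A, at -0.35 (SE 0.106, adjusted p = 0.0128 from limma). For MT1H the 95% interval of the log2 fold change ran from -0.11 to 1.21.

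Among the metallothioneins other than MT1H, replicate 2 was the lowest of the 3 libraries at 24 h in each gene. Without it the log2 fold change of MT2A was -0.23 (adjusted p = 0.0345 from limma). The call of MT2A was lost once the length and GC trends had been removed (log2 fold change -0.12, adjusted p = 0.342), and its adjusted p ran from 0.000205 to 0.342 over 20 alternatives. The same correction gave -0.39 for MT1F and -0.46 for MT1M, which kept their calls, and 0.79 for MT1H, which gained one (adjusted p = 0.0418 from limma). MT1H also gained a call without replicate 1 with Gln added, at 0.89 (adjusted p = 0.012 from limma), whereas without replicate 2 with Gln added it stood at 0.15 (adjusted p = 0.531), the lowest and the highest adjusted p of its alternatives. The rise of MTF1 at 24 h, 0.15 on the log2 scale, was at the edge of the threshold (adjusted p = 0.0471 from limma) and was lost in 13 of 20 alternatives, over all of which the adjusted p ran from 0.0155 to 0.447. Leaving out any single library but replicate 2 with Gln added or replicate 1 at 24 h ended this call, at log2 fold changes from 0.13 to 0.15.

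**Figure D2:**
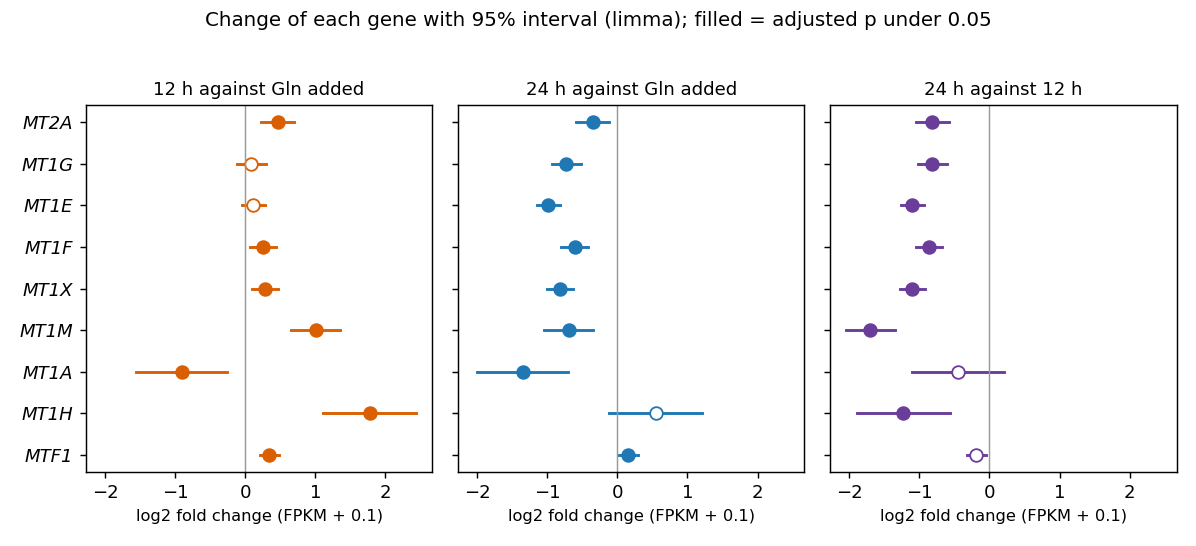
Log2 fold change on the log2(FPKM + 0.1) scale of each gene at 12 h and at 24 h against Gln added, and at 24 h against 12 h, with 95% intervals from limma and 3 libraries in each group. Filled points passed the test at an adjusted p under 0.05, and in the comparison of 24 h with 12 h all 9 points lie below 0, from -1.70 for MT1M to -0.19 for MTF1.

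The comparisons of 12 h and 24 h with Gln added share their 3 control libraries, so the times were also compared directly. From 12 h to 24 h, 7 of the 9 genes fell and 0 rose, and MT1A and MTF1 did not pass the test. Of all 11880 genes, 10.5% fell and 9.57% rose in this comparison, and the median log2 fold change was -0.86 for the 9 genes and 0.02 for all genes. The log2 fold change was -1.70 for MT1M (SE 0.157, adjusted p = 5.62e-05 from limma), -1.23 for MT1H (SE 0.30, adjusted p = 0.0161), -1.10 for MT1X (adjusted p = 1.64e-05) and -1.10 for MT1E (adjusted p = 8.96e-06). MT1F stood at -0.86 (adjusted p = 9.02e-05 from limma), MT2A at -0.82 (adjusted p = 0.000461) and MT1G at -0.81 (adjusted p = 0.000227). With all genes in order from the largest fall, MT1M was at rank 2 of 11880, MT1H at 7, MT1X at 9, MT1E at 10, MT1F at 26, MT2A at 32 and MT1G at 33. MT1A was at rank 261 and MTF1 at 1381.

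MT1A stood at -0.45 in this comparison (adjusted p = 0.323 from limma, 95% interval from -1.10 to 0.21), and it ran from -0.71 to -0.18 as single libraries were left out. MTF1 stood at -0.19 (adjusted p = 0.0555 from limma) and gained a call in 4 of 20 alternatives, with an adjusted p between 0.0231 and 0.13. The call of MT1H was lost without replicate 1 at 12 h (adjusted p = 0.0608 from limma), without replicate 3 at 24 h (adjusted p = 0.056) and with no filter on low values (adjusted p = 0.0585), and its lowest adjusted p was 0.00107. A pseudocount of 1 gave it a log2 fold change of -0.77. The calls of MT1E, MT1F, MT1G, MT1M, MT1X and MT2A held in all 20 alternatives of this comparison.

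The summed level of the 8 metallothioneins was highest at 12 h and lowest at 24 h. It was 1548 FPKM ± 27.9 (SD, n = 3) with Gln added, 1895 ± 91.6 after 12 h and 1029 ± 153 after 24 h. By library it was 1567, 1516 and 1561 FPKM with Gln added, 1987, 1804 and 1894 FPKM after 12 h, and 1172, 868 and 1046 FPKM after 24 h, with no overlap between groups. The level at 24 h was 0.543 times that at 12 h. The sum was not recomputed with the length and GC trends removed. With them removed, the log2 fold change of MT2A, its largest part, was 0.74 at 12 h and -0.12 at 24 h against Gln added. MT2A made up 40.6% ± 0.35 (SD, n = 3) of the sum with Gln added, 45.8% ± 2.72 after 12 h and 48.2% ± 2.26 after 24 h. The share of MT1E went the other way, from 17.2% ± 0.114 to 15.2% ± 0.308 and 13.2% ± 0.542. In the same order MT1M took 1.46%, 2.38% and 1.35% of the sum, and MT1A 1.38%, 0.595% and 0.80%. These shares are given as values without a test.

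**Figure D3:**
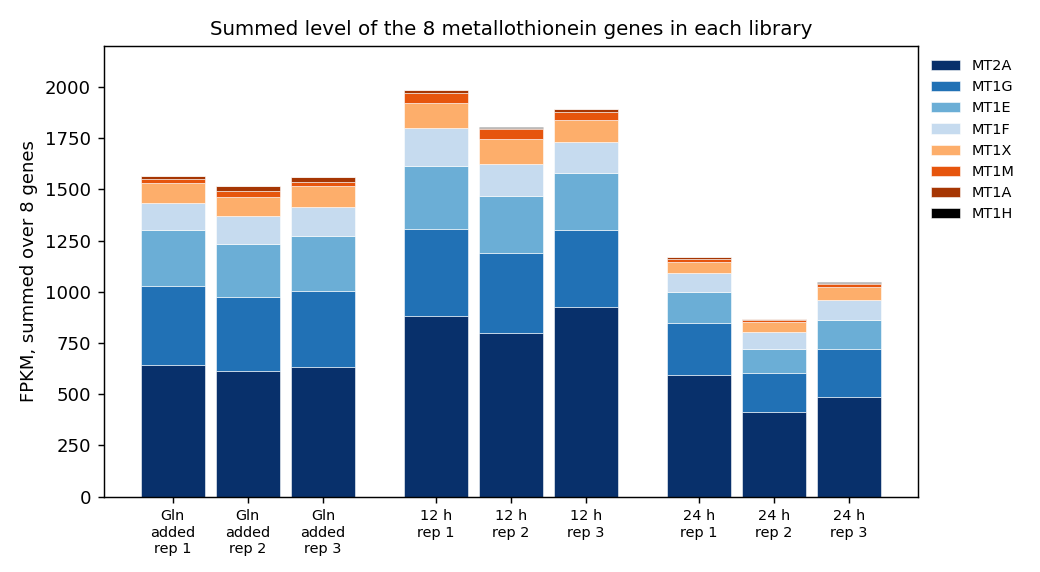
Summed FPKM of the 8 metallothionein genes in each of the 9 libraries, stacked by gene on a linear axis from 0. The 3 libraries at 12 h stand between 1804 and 1987 FPKM, those with Gln added between 1516 and 1567, and those at 24 h between 868 and 1172, and MT2A (bottom) is the largest share of every bar.

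Each gene was tested as well by exact permutation of its 3 against 3 libraries (two-sided), where p cannot be below 0.1. This p says only that the libraries of the groups did not overlap, and in that exact test it was reached by 8 of the 9 genes at 12 h, all but MT1G (p = 0.2). It was reached by 8 of 9 at 24 h, all but MT1H (exact p = 0.4), and by 8 of 9 between 12 h and 24 h, all but MT1A (exact p = 0.4). Among all 11880 genes, the libraries did not overlap in 67.2% of genes at 12 h, in 69.9% at 24 h and in 34.4% between the times.

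Across the 9 libraries the abundant metallothioneins varied together. Pearson's r on the log2 scale was 0.99 for MT1E and MT1G, 0.977 for MT1E and MT1X and 0.853 for MT1E and MT2A. MT1A had r between 0.221 and 0.615 with the metallothioneins other than MT1H, and -0.462 with MT1H. MTF1 had r from 0.108 (MT1G) to 0.739 (MT1H) with the metallothioneins other than MT1A, and -0.434 with MT1A. The 9 points share the 3 groups and their libraries, so these values describe the pattern and carry no test. Within the family the highest r of MT2A was 0.901, with MT1M, which is below that of the non-member genes named next. The non-member genes most like MT2A over the 9 libraries were ODC1 (r = 0.979), the rate-limiting enzyme of polyamine synthesis, CCNB1IP1 (0.977), PTGR1 (0.976), SNHG16 (0.973) and KATNA1 (0.973). Their swings were smaller than that of MT2A, with ODC1 at 182, 197 and 173 FPKM and PTGR1 at 136, 159 and 119 FPKM as the means of Gln added, 12 h and 24 h.

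Other symbols of the family were sparse. MT1B, in the same cluster, had 11.3, 7.94 and 9.52 FPKM with Gln added, 10.8, 9.19 and 7.56 FPKM at 12 h, and 5.90, 2.91 and 5.98 FPKM at 24 h. The 12 h libraries overlapped those with Gln added, and the log2 fold change of -0.06 at 12 h did not pass the test (adjusted p = 0.849 from limma) and changed sign between alternatives. At 24 h MT1B was at 0.50 times the level with Gln added (SE 0.247 on the log2 scale, adjusted p = 0.00446 from limma), and its log2 fold change without replicate 2 at 24 h was -0.66. From 12 h to 24 h MT1B stood at -0.94 (adjusted p = 0.0227 from limma), a call lost in 3 of 20 alternatives. Exons of ENSG00000259923 cover 30.5% of its exonic bases on the same strand. The promoter of MT1B held 3 cores of the metal response element, and 1.58% of all promoters held at least 3. MT3, the metallothionein of brain, had 0 to 2 fragments per library, and TESMIN, a testis gene once classed with the metallothioneins, had 1 to 5, both too few for a test. MTF2, which shares a name with MTF1 but is a Polycomb protein, had group means of 7.56, 7.46 and 8.33 FPKM.

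Genes of the SLC30 family, listed by symbol as zinc exporters, were examined beside the metallothioneins. The list did not sort them by membrane or by metal carried. SLC30A1, the zinc exporter that MTF1 also controls, had a mean of 28.4 FPKM ± 1.45 (SD, n = 3) with Gln added, 42.0 ± 3.38 after 12 h and 45.0 ± 5.48 after 24 h. Its log2 fold change was 0.56 at 12 h (adjusted p = 0.000236 from limma) and 0.66 at 24 h (adjusted p = 6.10e-05), and 0.10 from 12 h to 24 h (adjusted p = 0.482). Of 7 zinc exporters tested, 1 rose and 4 fell at 12 h, where 29.1% of all genes rose and 31% fell, and 2 rose and 3 fell at 24 h, against 33% and 31.7% of all genes. Among those that fell were SLC30A3, an exporter into vesicles, at -0.46 and -0.60 (12 h and 24 h), and SLC30A9, at -0.54 and -0.38. The libraries of SLC30A3 overlapped at 12 h, and its call there was lost without replicate 1 (-0.37) or replicate 2 (-0.41) with Gln added and without replicate 1 at 12 h (-0.39), in a range of adjusted p from 0.00365 to 0.0646. From 12 h to 24 h, 1 exporter rose and 1 fell, with a median of 0.06, while 9.57% of all genes rose and 10.5% fell.

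Of 11 zinc importers tested, 2 rose and 7 fell at 12 h (29.1% and 31% of all genes), and 5 rose and 6 fell at 24 h (33% and 31.7% of all genes). SLC39A4, the intestinal zinc importer, had log2 fold changes of -0.54 at 12 h and -0.64 at 24 h, and SLC39A11 of -0.46 and -0.37. SLC39A13, a carrier of the secretory pathway, did not pass the test at 12 h (0.17, adjusted p = 0.0799 from limma) and rose by 0.65 at 24 h (adjusted p = 2.56e-05). At 12 h it gained a call in 3 of 20 alternatives, among them without replicate 1 with Gln added (0.23) and without replicate 2 at 12 h (0.23), and its adjusted p ran from 0.0232 to 0.27. From 12 h to 24 h, 4 importers rose and 0 fell, against 9.57% and 10.5% of all genes, with a median of 0.09.

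Of 14 genes of copper handling, 3 rose and 8 fell at 12 h, 3 rose and 6 fell at 24 h, and 2 rose and 0 fell from 12 h to 24 h. In the same order, 29.1%, 33% and 9.57% of all genes rose and 31%, 31.7% and 10.5% fell. ATOX1, a copper chaperone, fell by 0.52 at 12 h (by 0.27 with the length and GC trends removed) and by 0.83 at 24 h on the log2 scale. From 12 h to 24 h it stood at -0.32 and gained a lower call in 4 of 20 alternatives, among them without replicate 3 at 24 h (-0.43), in a range of adjusted p from 0.017 to 0.162. STEAP3, a metalloreductase, fell by 0.62 and 0.55, and SLC31A2, a copper transporter, rose by 0.43 and 0.72. SLC31A2 was also 1 of the 2 that rose from 12 h to 24 h, at 0.29, a call lost in 7 of 20 alternatives (adjusted p from 0.0127 to 0.114), including those without replicate 1 or 3 at 12 h or at 24 h, at 0.25 to 0.26. The other was CP, at 0.53 (adjusted p = 0.00018 from limma), which was not followed through the alternatives. In the list of metal- and stress-responsive genes, which includes SLC30A1, 5 rose and 5 fell at 12 h, 4 rose and 5 fell at 24 h, and 2 rose and 5 fell from 12 h to 24 h, to be read against the same shares of all genes. SRXN1, which repairs oxidized peroxiredoxins, rose by 0.92 at 12 h and 0.57 at 24 h. The heat-shock genes HSPA1A and HSPA1B fell by 1.34 and 1.47 at 12 h and by 0.65 and 0.85 at 24 h, and since their sequences are nearly identical, reads cannot be assigned between them with certainty. From 12 h to 24 h the median log2 fold change was 0.02 for the copper list, -0.16 for the metal- and stress-responsive list and -0.98 for the 8 metallothioneins. In the metal- and stress-responsive list HMOX1 (-0.56), TXNRD1 (-0.45), GCLM (-0.40), SRXN1 (-0.35) and GCLC (-0.24) fell between these times. HSPA1A (0.68) and HSPA1B (0.62) rose, and 3 genes were not called. Of those that fell, GCLC, GCLM, TXNRD1 and SRXN1 had risen at 12 h against Gln added, while HMOX1 had fallen.

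**Figure D4:**
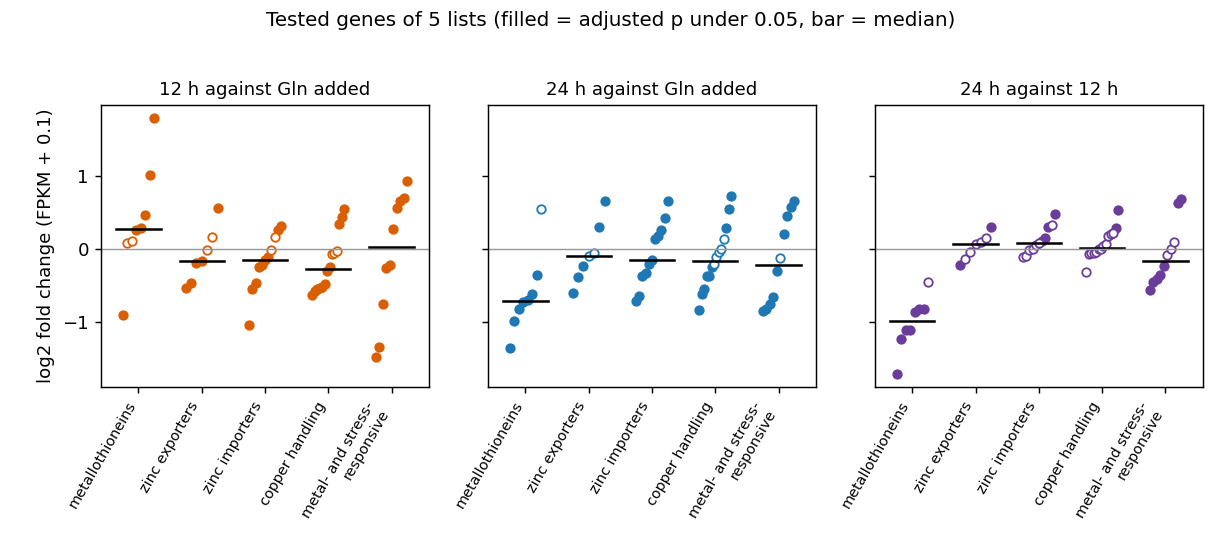
Log2 fold change on the log2(FPKM + 0.1) scale of each tested gene of 5 lists in the 3 comparisons, filled where the adjusted p from limma was under 0.05, with a bar at the median of each list. At 24 h against 12 h the median is -0.98 for the 8 metallothioneins, 0.06 for 7 zinc exporters, 0.09 for 11 zinc importers, 0.02 for 14 genes of copper handling and -0.16 for 10 metal- and stress-responsive genes.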

How the data were processed

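The authors deposited FPKM per gene for 9 HepG2 libraries, after alignment to GRCh38 with STAR according to the methods, while the submitters' processing notes name HTSeq and R 3.2.0. The labels name another library kit than the methods, so whether strand was used is not settled. FPKM values were whole multiples of 1 fragment, which gave fragments (within 0.1 of a whole number) and lengths for 100% of 22587 genes. Genes averaging 0.5 FPKM or more over the libraries were tested on log2(FPKM + 0.1) with limma 3.58.1 (R 4.3.3, lmFit and eBayes with a trend), 3 groups of 3 libraries in 1 fit, and p-values were adjusted over these genes (Benjamini-Hochberg). This scale understates changes of genes near 0.1 FPKM. The scripts were tested on simulated data. Members and gene lists were chosen with earlier results of these data known. The genes named were all members, the listed family symbols in the expression table and SLC30A1. MT1HL1, which was not listed, had 0 or 1 fragment per library. Also named were the 3 largest called changes of each list above a mean of 1 FPKM, and the 5 genes most correlated with MT2A. HSPA1A and HSPA1B are named by this rule, and CP, HMOX1, TXNRD1, GCLM and GCLC were named outside it. Marker genes were CD68, ACTA2 and others used as a check. The 20 alternatives were pseudocounts of 1 and 0.01, no filter on low values, a minimum mean of 1 FPKM, total and median-ratio scaling, only the groups compared, a replicate block, no trend, limma's voom on the fragments, each library left out, and the length and GC trends (natural splines of 4 degrees of freedom) removed. Python 3.11.15 with matplotlib 3.10.9 drew the figures.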

Additional observations from a re-analysis of the deposited data

Results flagged for a closer look

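For 7 of the 9 genes the level at 24 h of Gln deprivation differed from that at 12 h in the direct test of the difference, so that the effects at the 2 times differed. On the log2 scale the difference, 24 h minus 12 h, was -1.10 for MT1E, -0.86 for MT1F, -0.81 for MT1G, -1.23 for MT1H, -1.70 for MT1M, -1.10 for MT1X and -0.82 for MT2A. By the same test 10.5% of all genes fell and 9.57% rose from 12 h to 24 h. No explanation was tested.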

How the results depend on the processing

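Of 540 values of the 9 genes recomputed under 20 alternatives, 502 kept their direction and their side of the threshold, 28 lost a call, 10 gained one and 0 reversed. Several alternatives change only the spread or the adjustment and leave the fold change as it was, so they could not reverse it. They include the filters on low values, no trend, the replicate block, only the groups compared, and leaving out a library of the group not compared. As single libraries were left out, the number of the 9 genes called was 4 to 8 at 12 h, 7 to 8 at 24 h and 6 to 7 between the times. The 4 at 12 h came without replicate 2 with Gln added. Shares of all genes called were taken only in the main fit, so a loss of calls across all genes cannot be told apart here. MT1B at 12 h turned from -0.06 to 0.22 with length and GC trends removed, to 0.06 without replicate 1 with Gln added and to 0.073 without replicate 3 at 12 h, in a range from -0.18 to 0.073 over the single libraries left out, none of them called. Whether the replicate numbers pair the samples was not settled. Same-numbered libraries had correlations of their deviations from -0.136 to 0.283, with 2 of 9 over 0.1. Other pairs ran from -0.467 to 0.296, with 2 of 18 over 0.1. Such correlations cannot show that libraries were unpaired. With a replicate block the numbers called were 7 at 12 h, 7 at 24 h and 7 between the times, against 7, 8 and 7 without it, and the call that changed was MTF1 at 24 h (adjusted p = 0.0643 from limma). The causes were not tested. MT1H rests on 4 to 32 fragments per library, and 3 libraries per group limit all intervals. The fit gives each gene 1 spread for all 3 groups, although the groups differed in spread. The coefficient of variation of MT2A was 2.54% with Gln added and 18.3% at 24 h. It was also larger at 24 h for MT1A, MT1E, MT1F, MT1G and MT1X, and smaller for MT1H, MT1M and MTF1.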
